A study of Mus musculus with 2 samples.

Results

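The macrophage and Kupffer cell barcodes of 2 droplet libraries of perfused mouse liver were compared between an animal that expressed an activated YAP in the liver and a control. They were chosen by their own counts, as every barcode with a summed count of at least 15 unique molecular identifiers (UMIs) of C1qa, C1qb, C1qc, Cd5l, Vsig4 and Clec4f. The choice took 279 of 4513 barcodes, 25 control and 254 tetYAP 4W barcodes, which are called members below. Both animals were C57BL/6 mice with LaptTA, a tetracycline transactivator driven by the LAP promoter, which is active in the liver. The control carried no inducible transgene (LaptTA;WT), and the other animal carried tetYAP, a constitutively active point mutant of YAP placed at the Col1A1 locus. Per the methods of the study, doxycycline in the food held the transgene silent, and mice of 4 weeks were moved to a regular diet to switch it on, and the 4W library was made after 4 weeks of expression. The cells were isolated by perfusion, and both libraries are labelled as hepatocytes, so that the members are cells that came along with that preparation. Each group is 1 library from 1 preparation, so no test between the libraries was possible, and every interval below is a 95% interval that covers counting error only.

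Kupffer cells are the resident macrophages of the liver sinusoids. They settle before birth, depend on signals through the receptor Csf1r and clear bacteria, aged red cells and debris from portal blood with a set of scavenger and complement receptors. C1qa, C1qb and C1qc encode the chains of complement C1q, Cd5l encodes a secreted macrophage protein, Vsig4 a receptor for complement-coated particles and Clec4f a lectin that marks Kupffer cells in the mouse. When Kupffer cells are lost, monocytes from blood can fill the niche, and such cells first carry genes like Ccr2 and Ly6c2 and acquire Timd4 late.

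The promoters of Clec4f and Cd5l, which were used to choose the members, and of Marco, the gene with the largest difference between the libraries among those named by size, are shown for their sequence context. The sequences are RefSeq promoters on GRCm38.p6 (mm10), from 250 bases before to 50 after the start of the gene, written 5′ to 3′ on the strand of the gene. Capitals mark GAGGAA, a core bound by PU.1-type factors, and TGGGAA, a core bound by RBPJ, on either strand. Clec4f lies on the minus strand at chr6:83656067-83656366, Cd5l on the plus strand at chr3:87357631-87357930 and Marco on the minus strand at chr1:120504975-120505274.
Clec4f: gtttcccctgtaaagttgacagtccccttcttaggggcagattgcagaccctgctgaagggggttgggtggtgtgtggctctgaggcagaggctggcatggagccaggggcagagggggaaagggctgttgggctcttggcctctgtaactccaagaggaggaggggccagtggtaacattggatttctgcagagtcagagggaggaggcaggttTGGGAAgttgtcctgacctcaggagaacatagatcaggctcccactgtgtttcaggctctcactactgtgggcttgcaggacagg
Cd5l: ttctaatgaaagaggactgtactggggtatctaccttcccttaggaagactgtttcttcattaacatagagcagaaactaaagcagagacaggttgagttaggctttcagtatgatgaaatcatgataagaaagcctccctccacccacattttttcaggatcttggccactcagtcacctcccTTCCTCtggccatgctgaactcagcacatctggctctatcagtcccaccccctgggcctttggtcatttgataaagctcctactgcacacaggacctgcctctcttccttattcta
Marco: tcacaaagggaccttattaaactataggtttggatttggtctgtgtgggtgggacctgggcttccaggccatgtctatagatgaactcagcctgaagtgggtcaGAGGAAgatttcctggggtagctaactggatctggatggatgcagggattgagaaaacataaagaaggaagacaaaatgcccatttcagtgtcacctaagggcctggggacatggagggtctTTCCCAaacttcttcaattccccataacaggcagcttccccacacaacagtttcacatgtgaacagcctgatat
The Clec4f promoter held 1 TGGGAA and no GAGGAA, the Cd5l promoter 1 GAGGAA and no TGGGAA, and the Marco promoter 1 of each. Of 32851 mouse promoters of the same length, 28.3% held GAGGAA and 25.6% held TGGGAA, so that matches of this kind are common.

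The deposited table held 31053 genes and no cell barcode was shared between the libraries. Members had a median of 4022 UMIs and 1448 genes for the control and of 4376.5 UMIs and 1435.5 genes for tetYAP 4W. Control members summed to 107637 UMIs and tetYAP 4W members to 1159315, so that the control side limits the precision of every ratio. The median mitochondrial share was 26.4% of control and 29.4% of tetYAP 4W member UMIs, against 28.1% and 41.2% of remaining barcodes. Xist had 0 UMIs in control members and 836 in tetYAP 4W members, and 4 Y-linked genes had 18 and 0 UMIs, so that the sex of the animals and the transgene cannot be told apart. Yap1 had 1 UMI in control and 21 in tetYAP 4W members, which is too few to compare.

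Members made up 0.836% of the control barcodes (exact binomial interval 0.542 to 1.23%) and 16.7% of the tetYAP 4W barcodes (14.8 to 18.6%). These are shares of the barcodes deposited, after perfusion and after the down-sampling and UMI limit of the authors, and not of the cells of the liver. Per the methods of the study both conditions were down-sampled to the same number of cells and deep barcodes were excluded. The deposited table held 2989 control and 1524 tetYAP 4W barcodes, so the libraries were not reduced alike. How this changed the member shares was not tested. The summed marker count ran from 16 to 126 in control members, with a median of 34, and from 15 to 287 in tetYAP 4W members, with a median of 51. Just inside the minimum, 2 control and 18 tetYAP 4W barcodes had 15 to 17 marker UMIs, and just outside it 1 control and 20 tetYAP 4W barcodes had 12 to 14. The tetYAP 4W barcodes just inside carried 13.9 UMIs of the pan-macrophage list each and 0 of the T and NK cell list. Those just outside carried 22.8 and 10.2. Between 8 and 11 marker UMIs lay 46 tetYAP 4W and 7 control barcodes, and 2946 control barcodes had 0 to 2. The members near the minimum are thus the least certain, mostly among tetYAP 4W barcodes.

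**Figure D1:**
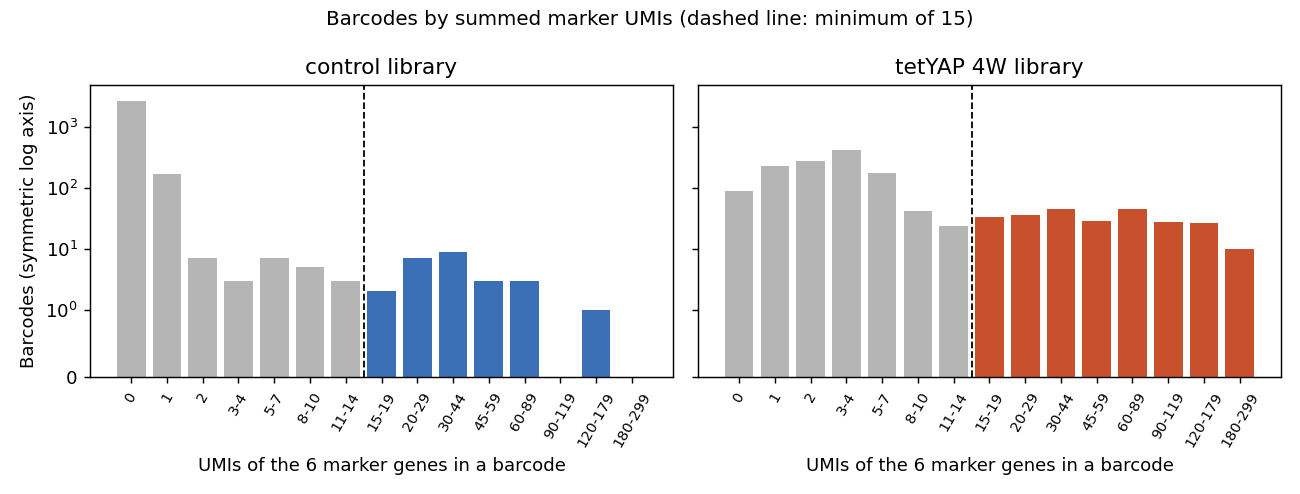
Barcodes of each library by their summed UMIs of the 6 marker genes, with the number of barcodes on a symmetric log axis. Members, right of the dashed line at 15 UMIs, are coloured, and the remaining barcodes are grey. Of the remaining barcodes 6.65% (control) and 92.9% (tetYAP 4W) had at least 1 marker UMI.

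As a description of the counts that chose them, 23 of 25 control and 206 of 254 tetYAP 4W members had all 6 marker genes, and 2 tetYAP 4W members had no UMI of Clec4f, Cd5l or Vsig4. Genes outside the choice were then examined. Pan-macrophage UMIs had a median of 38 per control member, with a range of 14 to 133, and of 58.5 per tetYAP 4W member, with a range of 5 to 212. Remaining barcodes had medians of 1 and 5, and the highest reached 63 and 244, so that the ranges overlapped. Timd4, a receptor for phosphatidylserine on resident macrophages, had 28 UMIs in control members and 320 in tetYAP 4W members, against 16 and 73 in all remaining barcodes. Csf1r was detected in 22 of 25 control members (88%, 68.8 to 97.5) and 236 of 254 tetYAP 4W members (92.9%, 89.0 to 95.7), at median depths of 4022 and 4376.5 UMIs. Among remaining barcodes the shares with a Csf1r UMI were 0.843% and 18.3%, at median depths of 3115 and 4108.5 UMIs. After every barcode was thinned to 2000 UMIs, Csf1r was found in 72% and 79.5% of members and in 0.348% and 10.4% of remaining barcodes, with 91 remaining control barcodes too shallow to thin.

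Defining genes of fresh monocytes were near 0 in the members, although other genes of that list were not. Ccr2, the receptor that draws monocytes out of the bone marrow, had 0 UMIs in control and 12 in tetYAP 4W members, while the remaining tetYAP 4W barcodes held 203. Ly6c2 had 0 and 6 UMIs, Chil3 0 and 1, S100a4 0 and 3, and Vcan 0 in both. In the remaining tetYAP 4W barcodes Ly6c2 reached 306, Chil3 108 and S100a4 223 UMIs. Gpnmb, a gene of lipid-associated macrophages, had 0 and 1 UMIs, and Retnla, a gene of alternative activation, had 0 in both. Summed, the 15 genes of the monocyte-derived list had a log2 ratio of tetYAP 4W over control of 0.91 (0.46 to 1.40), and 1.53 in remaining barcodes. Without Fn1 they had 10 and 473 UMIs in members (2.13, 1.24 to 3.20). Of the 15 genes 6 could be compared, with a median of 0.38, or 0.76 without the 4 under 3 control UMIs. Plac8, a gene of myeloid cells, was 2-fold higher with 9 and 259 UMIs (1.42, 0.47 to 2.56). No gene was 2-fold lower, against 3.92% higher and 11.1% lower of all genes compared further below. Cx3cr1, the fractalkine receptor, had 0 and 41 UMIs and Itgam, which encodes CD11b, 0 and 43. The markers of the members were those of Kupffer cells, while the labelled cell type is the hepatocyte.

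Other cells were present in few members. The T and NK cell list had 0 UMIs per control member, where a count of 0 allows up to 0.148, and 0.165 per tetYAP 4W member (0.119 to 0.224), against 4.07 per remaining tetYAP 4W barcode (3.96 to 4.19). The B cell list had 0.0800 and 0.0433 UMIs per member. At least 10 endothelial UMIs were counted in 1 control and 12 tetYAP 4W members. Hemoglobin stood apart, with 5 UMIs over all control members and 2644 over all tetYAP 4W members, and 2585 of the latter lay in 4 barcodes. A single barcode held 1640 of them at a marker sum of 16. Doublets were not removed. The neutrophil list had 0.16 and 0.520 UMIs per member, the dendritic list 1 and 1.58, the stellate list 0.56 and 0.724, and the cholangiocyte list 0.16 and 0.406. In tetYAP 4W members the neutrophil list was led by Mmp9 and the cholangiocyte list by Spp1, and both genes appear again below under other headings. Of endothelial genes 11 were compared, 5 of them with under 3 control UMIs, with 0 at 2-fold higher and 1 lower. Of all genes compared further below, 3.92% were 2-fold higher and 11.1% lower.

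Hepatocyte RNA was plentiful in the members, though below its level in the barcodes around them. The 16 hepatocyte genes, led by albumin, had 293 UMIs per control member (287 to 300) and 371 per remaining control barcode (371 to 372). In the tetYAP 4W library they had 259 per member (257 to 261) and 376 per remaining barcode (375 to 377). Control members thus held 79.0% of the UMIs per barcode of the remaining barcodes (77.2 to 80.8%) and tetYAP 4W members 68.9% (68.4 to 69.4%). These values are not corrected for the depth of the barcodes, so they do not rank the libraries. Per 1000 UMIs of a barcode the median was 66.7 in control members and 120.1 in remaining control barcodes. In the tetYAP 4W library it was 56.3 in members and 89.8 in remaining barcodes. Of the 16 genes 2 were 2-fold higher and 4 lower in tetYAP 4W members, against 3.92% and 11.1% of all genes compared further below. Single genes had similar ratios in members and in remaining barcodes. Serpina3k, a protease inhibitor of hepatocytes, had a log2 ratio of tetYAP 4W over control of -2.64 in members and -2.63 in remaining barcodes, Trf, which encodes transferrin, 1.27 and 1.47, and Alb 0.44 and 0.51. For some genes that hepatocytes also make, the ratio in the remaining barcodes is therefore given below.

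Macrophage RNA was in turn found outside the members, more so in tetYAP 4W. The 6 marker genes had 0.106 UMIs per remaining control barcode (0.0949 to 0.119) and 3.09 per remaining tetYAP 4W barcode (2.99 to 3.19). Set against members of the same library these are 0.265% and 4.65%. In tetYAP 4W it ran from 4.03% for Vsig4 to 5.37% for C1qb over the 6 marker genes. Over the 20 genes of Kupffer cell identity it ran from 2% for Spic to 38.5% for Id3, and their summed count gave 5.34% for control and 11.7% for tetYAP 4W. Timd4 (4.56%), Folr2 (4.54%) and Marco (5.47%) lay near the marker genes, while Cdh5 (33.4%), an endothelial cadherin, and Hpgd (28.9%) lay with Id3. It was larger for genes that other blood cells share, at 15.9% for Lyz2 and 32.9% for Ptprc, which encodes the pan-leukocyte protein CD45. The remaining barcodes were chosen to hold under 15 marker UMIs, so for the 6 marker genes these values are a description.

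**Figure D2:**
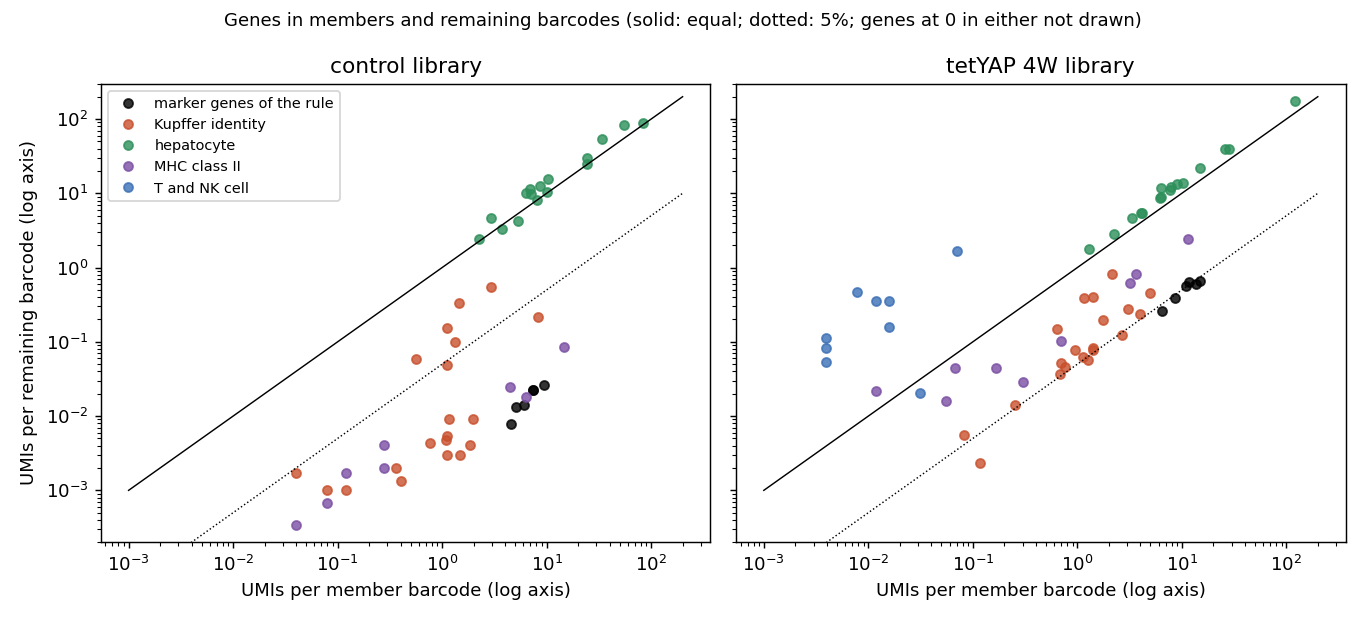
Each point is 1 gene, with its UMIs per member barcode across and per remaining barcode up, both on log axes, control on the left and tetYAP 4W on the right. Hepatocyte genes lie near the line of equality in both libraries. In the tetYAP 4W library marker genes lie near the dotted line of 5%, while Kupffer identity genes spread from below it to well above it, at 11.7% for their sum. In the control both kinds lie mostly below the dotted line.

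**Figure D3:**
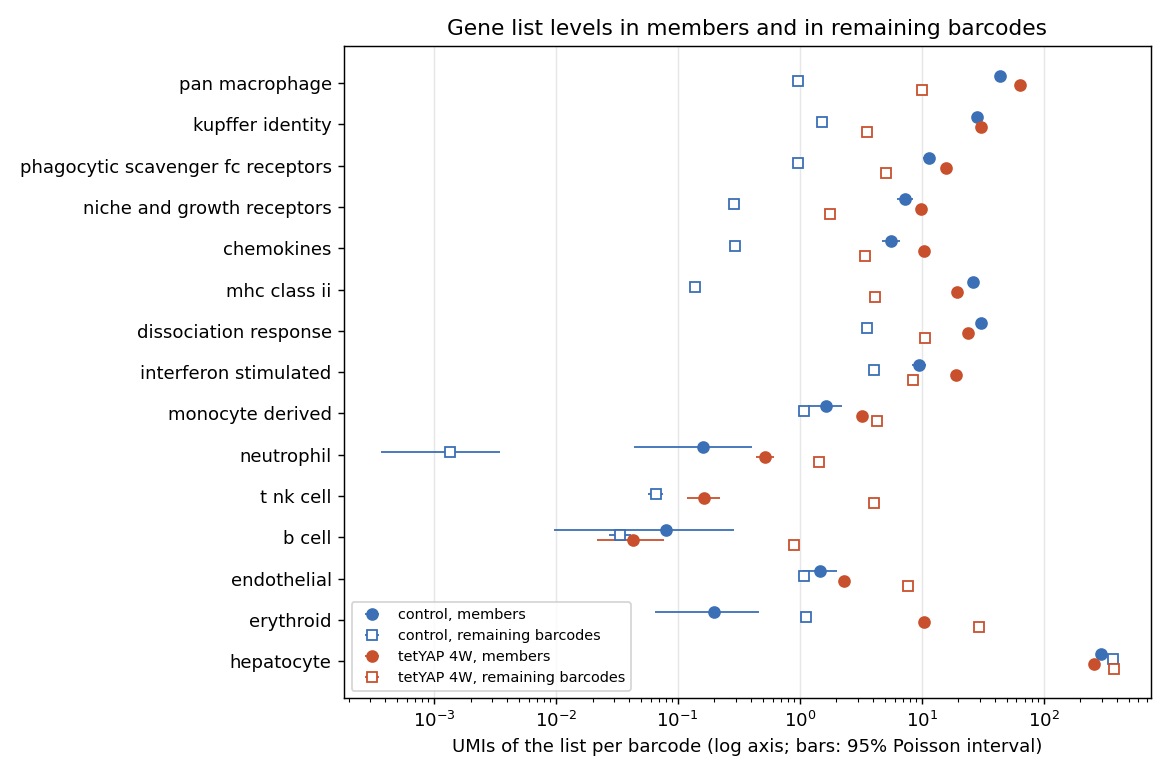
UMIs per barcode of 15 gene lists on a log axis, for members (filled) and remaining barcodes (open) of each library, with Poisson intervals. The pan-macrophage list stands at 43.8 and 64.7 UMIs in members and at 0.964 and 10.03 in remaining barcodes.

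Counts of members were summed per library and scaled to CPM, the UMIs of a gene per 1000000 UMIs of all members, and 5945 genes with at least 20 UMIs over both libraries were compared. Counts under 3 were set to a floor of 3, and a gene is counted as different where its CPM differed at least 2-fold. Of the compared genes, 233 were at least 2-fold higher in tetYAP 4W members, 3.92% of those compared, and 661 were at least 2-fold lower, 11.1%. Of the 1562 compared genes with a 3-fold higher CPM in members than in remaining barcodes, 92 were 2-fold higher (5.89%) and 233 were 2-fold lower (14.9%). The median log2 ratio was -0.26 over all compared genes, -0.40 over the 1562 and 0.03 over the 1415 genes with at least 100 UMIs. Of the compared genes 1701 had under 3 control UMIs, also with a median of -0.26, and for them the floor raises the control and so lowers the ratio. With 0.5 UMIs added to every count instead of the floor, the median over all compared genes was -0.12. With 25 control barcodes, a gene near 20 UMIs in total has about 2 in the control, so that many ratios rest on few UMIs. The balance of higher and lower genes depended on the settings, with 743 higher and 802 lower when 0.5 UMIs were added to every count instead of the floor. It was 125 and 100 among genes with at least 100 UMIs, and 62 and 2035 when scaled to the pan-macrophage list. Counts for each list below stand against the 3.92% and 11.1% of all compared genes.

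Only 3 of 749 genes with at least 50 UMIs and a 3-fold higher CPM in members had an interval wholly beyond a 2-fold difference, and all 3 were higher in the tetYAP 4W library. Marco, a scavenger receptor that binds bacteria and is found on part of the Kupffer cells, had 2 UMIs in control and 289 in tetYAP 4W members. This is 18.6 and 249 CPM, a log2 ratio of 3.75 as counted (1.88 to 6.80) and of 3.16 with the floor. Lgals3bp, a secreted binding partner of galectin-3, had 7 and 325 UMIs, a log2 ratio of 2.11 (1.05 to 3.43), and differed by the same amount in remaining barcodes, at 2.04. Capg, an actin-capping protein of macrophages, had 0 and 84 UMIs, a log2 ratio of 1.38 against the floor of 3 control UMIs, with a lower bound of 1.05 from the counts. With the level of remaining barcodes subtracted Capg was at 0.86, and scaled to the pan-macrophage list at 0.90, under 2-fold in both. None of the 749 lay wholly below a 2-fold lower level. Marco (chromosome 1, 120474538 to 120505024), Lgals3bp (chromosome 11, 118392747 to 118401959) and Capg (chromosome 6, 72538282 to 72562983) are protein-coding genes in RefSeq.

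Marco was found in a part of the tetYAP 4W members. A Marco UMI was counted in 1 of 25 control members (4%, 0.101 to 20.4) and in 82 of 254 tetYAP 4W members (32.3%, 26.6 to 38.4). In the remaining barcodes the shares were 0.101% and 5.04%. After thinning to 2000 UMIs they were 0% of control members, which allows up to 13.7%, and 23.2% of tetYAP 4W members (18.2 to 28.9), against 2.68% of remaining tetYAP 4W barcodes. The highest tetYAP 4W member had 36 UMIs, and the 10 highest held 38.8% of all Marco UMIs of the members. In the subsets of tetYAP 4W members described below Marco stood at 16.7 to 370.1 CPM, against 18.6 in control members.

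Of the 20 genes of Kupffer cell identity, 3 were 2-fold higher and 1 was 2-fold lower in tetYAP 4W members, against 3.92% and 11.1% of all compared genes. Their median log2 ratio was 0.04, beside -0.26 over all compared genes. Timd4 was at 260.1 CPM for control and 276 for tetYAP 4W members, a log2 ratio of 0.09 (-0.47 to 0.70). Cd207, which encodes langerin, was at 344 and 311 CPM (-0.14, -0.63 to 0.39), and Folr2, a folate receptor of resident macrophages, at 427 and 589 CPM (0.46, 0.03 to 0.93). Fabp7, a fatty acid binding protein, was higher, at 251 and 675 CPM, a log2 ratio of 1.43 (0.87 to 2.04). Nr1h3, which encodes the LXR alpha receptor that maintains Kupffer cell identity, had a log2 ratio of 0.58 (0.03 to 1.18) and Id3, a transcriptional regulator of these cells, of -0.55 (-0.90 to -0.18). Kcna2, a potassium channel, had 10 and 21 UMIs and the lowest ratio of the list, -2.36 (-3.51 to -1.11). Gfra2, a receptor for glial-derived factors, was the last of the 3, with 3 and 65 UMIs and an interval that includes equality (1.01, -0.60 to 3.32).

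The 6 marker genes that chose the members were all somewhat higher in tetYAP 4W members, from a log2 ratio of 0.39 for Vsig4 to 0.87 for C1qb, which is a description since these counts set the choice. The pan-macrophage list had a median log2 ratio of 0.49, with 2 of 19 compared genes 2-fold higher and 0 lower. Lyz2, lysozyme, had 1273 and 2385 CPM, a log2 ratio of 0.91 (0.66 to 1.16). Csf1r, the receptor for the growth factors Csf1 and Il34, was at 901 and 907 CPM, a log2 ratio of 0.01 (-0.29 to 0.32), and Adgre1, which encodes F4/80, had a log2 ratio of 0.19 (-0.26 to 0.68). Of the pair, Cd14, the co-receptor for bacterial lipopolysaccharide, had 4 and 128 UMIs, a log2 ratio of 1.57 (0.18 to 3.47), and Coro1a, an actin-binding protein of leukocytes, 4 and 100 (1.21, -0.19 to 3.12). Scaling to the summed pan-macrophage list lowered every ratio by 0.48, and the ratios of Clec4f, Folr2, Timd4 and Ccl2 then turned to -0.02, -0.02, -0.39 and -0.14.

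**Figure D4:**
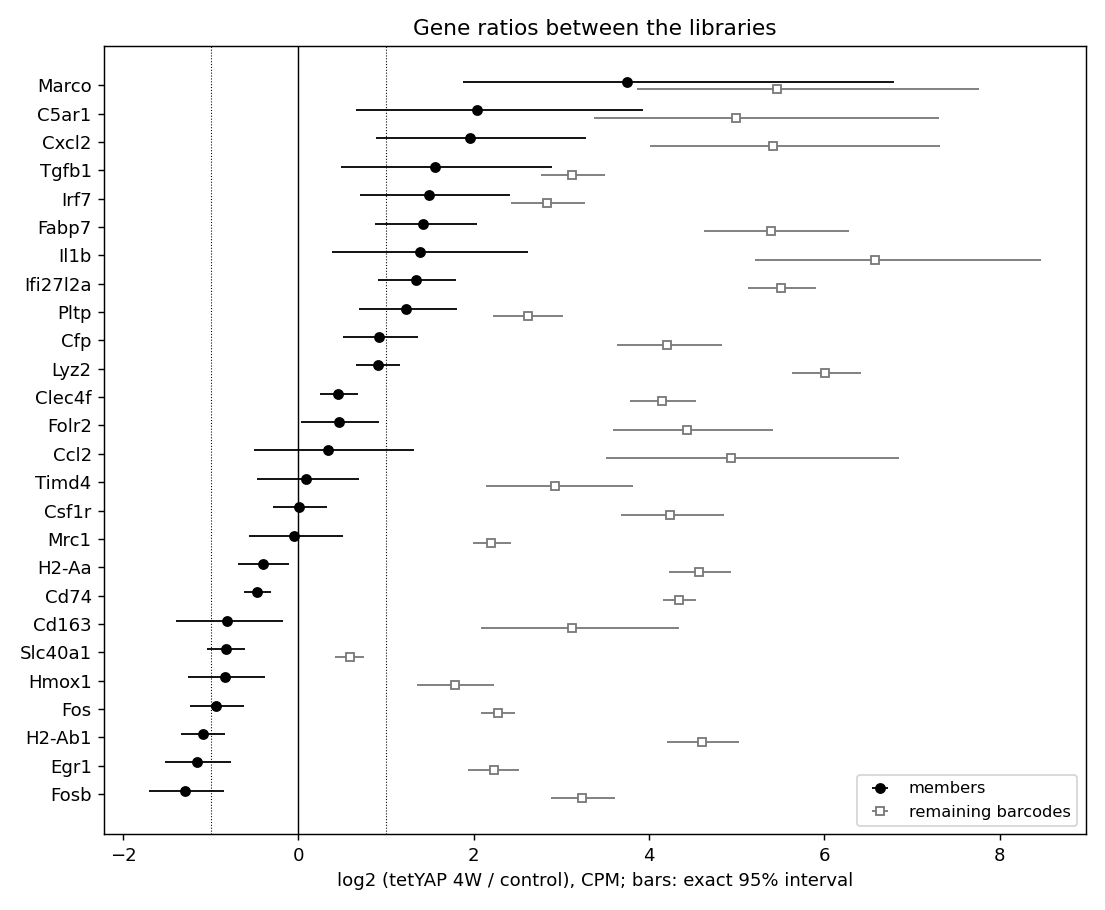
The log2 ratio of tetYAP 4W over control CPM as counted in members (filled) and with the floor in remaining barcodes (open), with exact conditional binomial intervals. Dotted lines mark a 2-fold difference. H2-Ab1, H2-Aa, Cd74, Fos, Fosb and Egr1 lie below 0 in members and above 0 in remaining barcodes.

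Receptors that take up particles and antibody-coated targets differed for a few genes. Of 18 compared phagocytic, scavenger and Fc receptor genes, 4 were 2-fold higher and 0 were 2-fold lower, against 3.92% and 11.1% of all compared genes, with a median log2 ratio of 0.29, and Marco led them. Msr1, the class A scavenger receptor, had 176.5 and 366 CPM, a log2 ratio of 1.05 (0.39 to 1.80; remaining barcodes 2.52). Mertk and Axl, receptors for apoptotic cells, had log2 ratios of -0.05 (-0.79 to 0.79) and -0.19 (-0.60 to 0.24). Mrc1, the mannose receptor, had a log2 ratio of -0.05 (-0.56 to 0.51), and the Fc receptor genes Fcgr1 and Fcgr3 had ratios of 0.14 (-0.71 to 1.12) and 0.30 (-0.41 to 1.10). Cd36 and Stab1, whose ratios were 1.04 and 1.30, had more UMIs per remaining tetYAP 4W barcode than per member.

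Genes of iron and heme handling, a task of Kupffer cells that ingest red cells, had a median log2 ratio of -0.12, beside -0.26 over all compared genes. Without the 2 genes under 3 control UMIs the median of the iron and heme genes was -0.35, and their sum was at -0.37 (-0.45 to -0.29). Of the 12 compared, 0 passed 2-fold in either direction. Slc40a1, the iron exporter ferroportin, had 207 and 1260 UMIs, or 1923 and 1087 CPM, a log2 ratio of -0.82 (-1.04 to -0.60), against 0.59 in remaining barcodes. Hmox1, heme oxygenase, had a log2 ratio of -0.83 (-1.26 to -0.38), and Cd163, the receptor for hemoglobin bound to haptoglobin, of -0.81 (-1.39 to -0.18). Cd163 was detected in 60% of control members (38.7 to 78.9) and 38.2% of tetYAP 4W members (32.2 to 44.5). Slc11a1, an iron transporter of phagosomes, had a ratio of 0.86 (-0.10 to 2.01). The intervals of Slc40a1, Hmox1 and Cd163 excluded equality. The summed list without the ferritin genes Fth1 and Ftl1 had a log2 ratio of -0.58 (-0.74 to -0.41).

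The MHC class II genes, which present antigen to CD4+ T cells, had a median log2 ratio of -0.40, as did the member-enriched genes, and 1 of 7 compared genes was 2-fold lower and 1 higher. H2-Ab1 had 160 and 812 UMIs, or 1486 and 700.4 CPM, a log2 ratio of -1.09 (-1.33 to -0.83). H2-Aa had 112 and 916 UMIs, a log2 ratio of -0.40 (-0.68 to -0.10), and Cd74, the invariant chain, 370 and 2885 UMIs, a log2 ratio of -0.47 (-0.62 to -0.31). H2-DMa, a chain of the peptide loading factor, went the other way, with 7 and 176 UMIs and a log2 ratio of 1.22 (0.15 to 2.56). H2-Ab1 alone was 2-fold lower, and H2-DMa alone 2-fold higher.
H2-Ab1 was found in 24 of 25 control members (96%, 79.6 to 99.9) and in 176 of 254 tetYAP 4W members (69.3%, 63.2 to 74.9), and in 1.05% and 17.2% of remaining barcodes. The lowest, median and highest H2-Ab1 counts were 0, 4 and 31 UMIs in control members and 0, 1 and 41 in tetYAP 4W members, so that the libraries overlapped. In remaining barcodes the ratio had the opposite sign, 4.61, with 54 control and 786 tetYAP 4W UMIs. Without members above 30% mitochondrial UMIs, which kept 18 and 131 barcodes, H2-Ab1 was at -0.70, H2-Aa at 0.03 and Cd74 at -0.12.

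MHC class I genes, by contrast, had a median log2 ratio of 0.20, and 0 of 13 compared genes passed 2-fold. H2-D1, a class I heavy chain, was at 0.74 (0.43 to 1.06), with 1.54 in remaining barcodes, and B2m, the light chain, at 0.05 (-0.17 to 0.29).

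Chemokines, which draw other leukocytes, had a median log2 ratio of 0.66 over 15 compared genes, of which 5 had under 3 control UMIs. Of these 15, 5 were 2-fold higher and 0 were 2-fold lower, against 3.92% and 11.1% of all compared genes. Cxcl2, a chemokine for neutrophils, had 7 and 292 UMIs, a log2 ratio of 1.95 (0.89 to 3.28). It was found in 5 of 25 control and 83 of 254 tetYAP 4W members. Ccl7, a chemokine for monocytes, had 3 and 115 UMIs, a ratio of 1.83 (0.25 to 4.13), and Ccl6, the most abundant of the list, 409 and 787 CPM, a ratio of 0.94 (0.51 to 1.42). Ccl9, Cxcl9 and Cxcl13 made up the 5, with 3 and 85, 1 and 68, and 1 and 91 UMIs. Ccl2, the main ligand of Ccr2, had 12 and 164 UMIs, and its log2 ratio of 0.34 has an interval from -0.50 to 1.33 that includes equality. Ccl3 and Ccl4 had ratios of -0.64 (-1.48 to 0.33) and -0.13 (-0.74 to 0.54). Ccl5, with 2156 UMIs in remaining tetYAP 4W barcodes, had 0 and 18 in members.

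Cytokine and NF-kB genes were mixed, with 2 of 14 compared genes 2-fold higher, 1 lower and a median log2 ratio of 0.07. Il1b had 8 and 226 UMIs, a log2 ratio of 1.39 (0.39 to 2.62), and a highest count of 2 UMIs in a control and 11 in a tetYAP 4W member. Its share of members was 24% and 36.2%, and 4% and 24.4% after thinning. Tnf had 5 and 17 UMIs, a log2 ratio of -1.66 whose interval (-3.16 to 0.13) includes equality. Icam1, an adhesion molecule, had 1 and 93 UMIs, a log2 ratio of 3.11 as counted (0.60 to 8.43). Il10 had 0 and 6 UMIs. Tgfb1, a regulator of matrix and of Kupffer cell identity, had 7 and 222 UMIs, a log2 ratio of 1.56 (0.49 to 2.89), with 3.13 in remaining barcodes.

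Of 11 compared complement genes besides C1q, 2 were 2-fold higher and 0 lower, with a median log2 ratio of 0.18. C5ar1, the receptor for the fragment C5a, had 4 and 177 UMIs, a log2 ratio of 2.04 (0.66 to 3.93), and was found in 3 of 25 control and 108 of 254 tetYAP 4W members. C3ar1, the receptor for C3a, had 18 and 121 UMIs and the opposite sign, -0.68 (-1.40 to 0.12). Cfp, properdin, had 455 and 864 CPM, a log2 ratio of 0.92 (0.51 to 1.37). C3 itself, with 126 and 3843 UMIs, was at 1.5 (1.25 to 1.77) in members and 1.70 in remaining barcodes, and had more UMIs per remaining barcode than per member in the tetYAP 4W library.

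Interferon-stimulated genes were higher as a sum, at 9.48 UMIs per control member (8.31 to 10.8) and 19.1 per tetYAP 4W member (18.5 to 19.6). The sum was also higher in remaining barcodes, at 4.07 UMIs per control and 8.47 per tetYAP 4W barcode. Its log2 ratio was 0.92 (0.74 to 1.12) in members and 0.58 (0.54 to 0.62) in remaining barcodes. Of 19 compared genes 4 were 2-fold higher and 0 lower, and 10 had under 3 control UMIs. The median log2 ratio was 0.31 in members and 2.25 in remaining barcodes. Irf7, a transcription factor of the interferon response, had 13 and 395 UMIs, a log2 ratio of 1.5 (0.71 to 2.42), and Ifi27l2a 45 and 1226 UMIs, a ratio of 1.34 (0.91 to 1.80). Both were also higher in remaining barcodes, by 2.84 and 5.51.

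Among receptors for growth and niche factors, those of Csf2 stood out by size. Csf2ra and Csf2rb, the chains of the receptor for GM-CSF, had 1 and 96 UMIs and 3 and 112 UMIs. The ratio of Csf2rb was 1.79 (0.21 to 4.09), and that of Csf2ra 3.16 as counted (0.64 to 8.47). Of 16 compared genes 3 were 2-fold higher, with Il10rb as the last of them (1 and 69 UMIs), and 0 lower, and the median was 0.27. Among secreted signals 2 of 13 compared genes were 2-fold higher and 1 lower, with a median of 0.53. Mmp9, a matrix protease, had 1 and 117 UMIs, a ratio of 3.44 as counted (0.94 to 8.76). Igf1 had a ratio of -0.91, near the -0.78 of remaining barcodes.

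Transcription factors of macrophages had a median log2 ratio of 0.00, with 1 of 22 compared genes 2-fold higher and 2 lower. Spi1, which encodes PU.1, had 11 and 225 UMIs, a ratio of 0.93 (0.06 to 1.95). Maf, a factor of mature macrophages, had 57 and 493 UMIs, a ratio of -0.32 (-0.71 to 0.11), and Zeb2 36 and 412, a ratio of 0.09 (-0.41 to 0.62). Klf4 had 6 and 169 UMIs, a ratio of 1.39 (0.23 to 2.85), and Klf2 0.28 (-0.08 to 0.66).

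Immediate early and stress genes, which cell isolation is known to induce, had a median log2 ratio of -0.37, beside -0.40 over member-enriched genes. Without the 1 gene of under 3 control UMIs the median of these immediate early and stress genes was -0.68. Of 18 compared, 3 were 2-fold lower and 1 was 2-fold higher, against 11.1% and 3.92% of all compared genes. The 3 were Fosb, Egr1 and the heat shock gene Hspa1b, and Fos and Dusp1 differed by less than 2-fold, with intervals that excluded equality. Fos had 976 and 510 CPM, a log2 ratio of -0.94 (-1.24 to -0.62), Fosb 58 and 256 UMIs, a ratio of -1.29 (-1.70 to -0.85), Egr1 -1.15 (-1.52 to -0.76) and Dusp1 -0.93 (-1.21 to -0.64). Jund (-0.06, -0.50 to 0.40), Btg2 (0.00, -0.58 to 0.64) and Ier3 (1.46, -0.13 to 3.77) did not share this. In remaining barcodes Fos, Fosb and Egr1 had ratios of 2.27, 3.24 and 2.23. In tetYAP 4W members the share of these genes went with the mitochondrial share at a Spearman correlation of -0.62 over 254 barcodes, which share a library. The pan-macrophage list went with it at -0.66 and the 6 marker genes at -0.52, while the hepatocyte list went with it at 0.51. A share is taken of all UMIs of a barcode, mitochondrial UMIs included, so it is not independent of the mitochondrial share. Without members above 30% mitochondrial UMIs Fos was at -0.69 and Egr1 at -0.92. Their part in the other results was not tested.

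**Figure D5:**
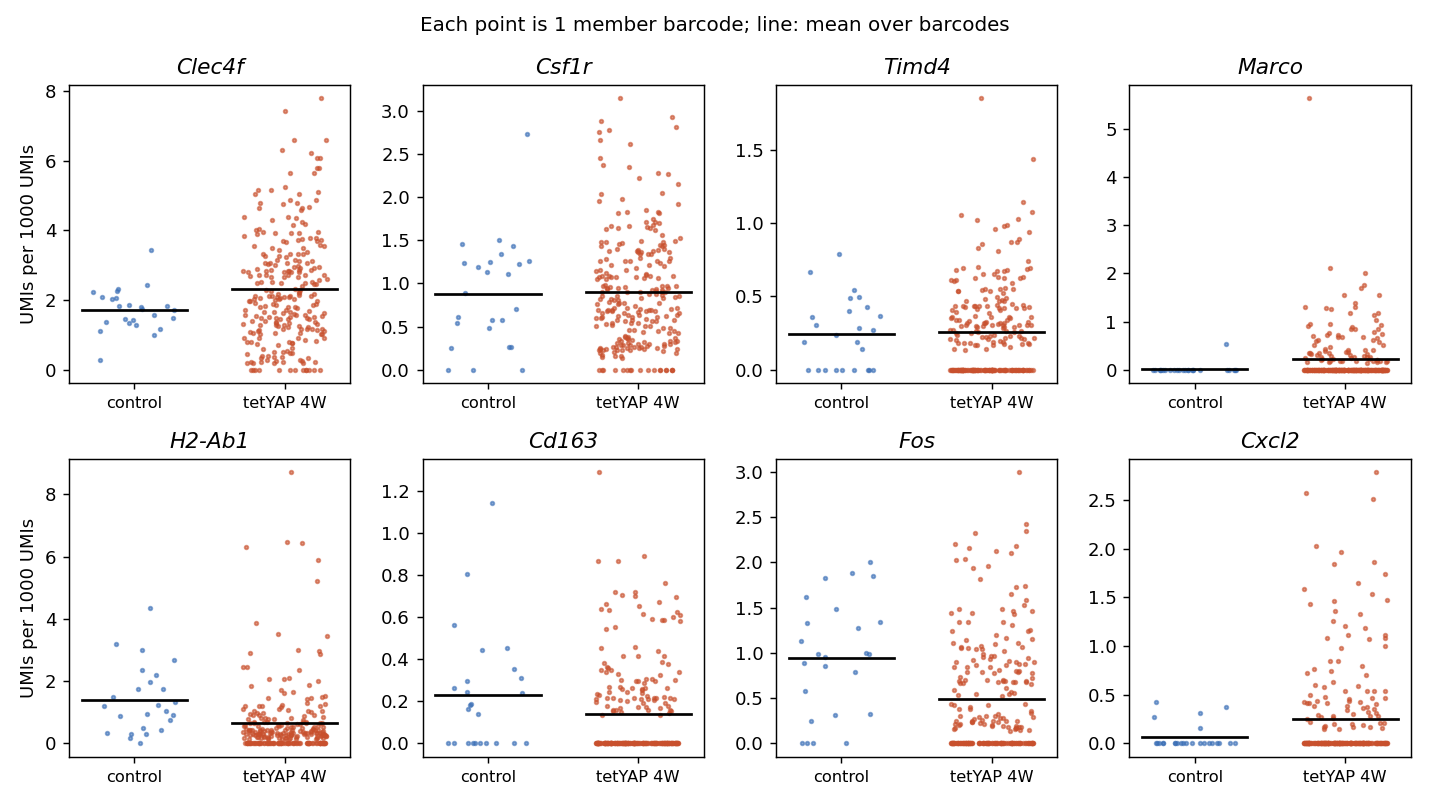
UMIs per 1000 UMIs of 8 genes in each of the 25 control and 254 tetYAP 4W members, where the horizontal line is the mean over barcodes. Marco is above 0 in 1 control and 82 tetYAP 4W members, and the 2 libraries overlap for every gene shown.

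Among lysosomal genes none stood apart, with 0 of 20 compared genes past 2-fold and a median log2 ratio of 0.19. Ctsb, the cathepsin with the most UMIs, was at 0.24 (0.05 to 0.44), and Lamp2, a membrane protein that hepatocytes also make, at -0.97 (-1.32 to -0.61). Of 12 compared LXR and cholesterol genes 2 were 2-fold higher and 1 lower (median 0.15), and of 12 lipid-associated genes 4 and 1 (median 0.34). Pltp, a phospholipid transfer protein, had 29 and 731 UMIs, a ratio of 1.23 (0.69 to 1.82), and Lpl, lipoprotein lipase, 0.00 (-0.55 to 0.60). Trem2, a receptor of lipid-associated macrophages, had 1 and 44 UMIs, and Spp1 had 0 and 75, with fewer Spp1 UMIs per member than per remaining tetYAP 4W barcode. Nuclear-encoded genes of oxidative phosphorylation had a median log2 ratio of -0.60 in members and -1.09 in remaining barcodes, and 2 of 25 compared genes (0 higher) were 2-fold lower, against 11.1% of all compared genes. Glycolysis genes had a median of -0.28, with 1 of 14 2-fold higher and 0 lower. The median log2 ratio of alternative activation genes was 0.67 in members and 2.50 in remaining barcodes. Of the 8 compared, 3 were 2-fold higher, up to a ratio of 1.56, and 1 was 2-fold lower. The latter was Arg1, arginase, with 20 and 104 UMIs and a ratio of -1.05 (-1.75 to -0.28), near the -1.23 of remaining barcodes, where hepatocytes express it.

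Genes of dividing cells had few UMIs in the members, though more per barcode than in the remaining barcodes. A UMI of Mki67 or Top2a was found in 1 of 25 control members (4%, 0.101 to 20.4) and 36 of 254 tetYAP 4W members (14.2%, 10.1 to 19.1), and in 0.202% and 6.61% of remaining barcodes. The 18 proliferation genes had 3.16 UMIs per control member (2.50 to 3.94) and 3.40 per tetYAP 4W member (3.18 to 3.64). Remaining barcodes had 0.280 and 1.98, and 1 control member alone held 49 of the 79 UMIs of control members. The share of members with at least 2 of these genes was 24% (9.36 to 45.1) for control and 47.2% (41.0 to 53.6) for tetYAP 4W, and in 2.56% and 35.1% of remaining barcodes. Of 14 compared, 0 were 2-fold higher and 2 lower, with a median of -0.17. The 15 YAP target genes, led by Axl, had 2.68 and 2.86 UMIs per member, against 0.142 and 1.11 per remaining barcode. Of 7 compared, 0 were 2-fold higher and 1 lower, and 4 had under 3 control UMIs. The summed log2 ratio of the list was 0.01 (-0.35 to 0.39) in members and 2.49 (2.33 to 2.65) in remaining barcodes. Ctgf and Ankrd1 had 0 UMIs in members of both libraries, and Cyr61 had 0 and 12.

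Among themselves the members fell into 6 clusters, and library and cluster could not be told apart, since 25 of 25 control members formed 1 cluster and the 254 tetYAP 4W members the other 5. The control cluster was led by Mup genes, which encode major urinary proteins of hepatocytes. The largest tetYAP 4W cluster, of 105 members, had Apbb1ip, Ppp1r18, Trib1, Il1b and Klf4 among its leading genes, a median mitochondrial share of 19.9%, 84.9 pan-macrophage UMIs per barcode and 42.0 of the dissociation list. A cluster of 82 members, led by hemoglobin genes and by hepatocyte genes such as Sult2a1 and Serpina6, had 322 hepatocyte UMIs per barcode, a median mitochondrial share of 42.0%, 26.4 pan-macrophage UMIs and 7.34 of the dissociation list. A cluster of 42, led by Usmg5 and Atpif1, had a median marker sum of 63, and a cluster of 15, led by Mmp9 and Ccl4, had one of 166. The last cluster, of 10 members, was led by the endothelial genes Aqp1, Ehd3 and Sparc and had 26.6 endothelial UMIs per barcode against 1 to 1.48 in the other clusters, and its Marco level was 16.7 CPM. H2-Ab1 was below the control's 1486 CPM in each tetYAP 4W cluster, between 167 and 970 CPM. The clusters were made from the same counts, so these values are a description.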

How the data were processed

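Raw counts, as whole numbers of UMIs per gene and barcode, were deposited by the authors for 1 control and 1 tetYAP 4W library. Per the labels and the study's methods, they came from Cell Ranger on mm10, with down-sampling of barcodes, removal of deep barcodes and Seurat 3 for later steps. The 2 libraries were assigned by the genotype in the labels and all deposited barcodes were used. The members, the 33 gene lists (457 of 459 symbols in the table), the named genes and the alternatives were chosen with earlier results of these data known. Named were up to 4 genes per list with the most UMIs in members, 19 genes picked with those results known, genes that the text singles out after their values were seen, and by size up to 10 each way among genes with at least 50 UMIs, a CPM 3-fold above remaining barcodes and an interval beyond 2-fold, without marker, mitochondrial, ribosomal protein and sex-linked genes. Sums carry exact Poisson, shares exact Clopper-Pearson and ratios exact conditional binomial 95% intervals. Barcodes were thinned to 2000 UMIs. Clusters of members came from scanpy 1.11.5, with 1000 variable genes, 15 components, 15 neighbours and Leiden resolution 0.4. The ratio function was tested on simulated data. Coordinates and promoters are those of RefSeq on GRCm38.p6. Python 3.11.15, numpy 2.4.6 and scipy 1.17.1 were used. Some genes are not reported here.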

Additional observations from a re-analysis of the deposited data

How the results depend on the processing

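No paired analysis was possible because each group has 1 library. A minimum of 10 marker UMIs moved the tetYAP 4W member share to 18.9%, and a minimum of 30 moved the shares to 0.535% and 12.1%, while thinning to 2000 UMIs gave 12.5% in the tetYAP 4W library. Hepatocyte RNA per barcode, not corrected for depth, was in members 89.5% of that in remaining barcodes in the control with a minimum of 30. In the tetYAP 4W library it was 70.6% with 10, 64.9% with 30 and 70.2% against remaining barcodes of 0 to 2 marker UMIs. The number of genes 2-fold higher was 125 with at least 100 UMIs, 743 with an offset of 0.5 UMIs (802 lower), 90 with the level of remaining barcodes subtracted and 62 when scaled to the pan-macrophage list. The number 2-fold lower was 100 with at least 100 UMIs, 7473 with no minimum, 3990 with subtraction, 2035 when scaled and 374 without members above 30% mitochondrial UMIs. Scaling to the pan-macrophage list moved the monocyte list to -0.10 and every ratio by -0.48. Subtraction brought Spp1, the cholangiocyte list and the erythroid list to -3.43. That is the value a gene gets when both libraries are set to the floor of 3 UMIs, and not a measured difference. The counts of lower genes with subtraction and with no minimum include genes at that floor in both libraries. Leaving out 1 control and 16 tetYAP 4W members rich in hemoglobin or endothelial UMIs turned the erythroid list to -0.11. The limits on mitochondrial, hemoglobin and endothelial UMIs were chosen after seeing the data. With 25 control members, differences of genes with under 3 control UMIs cannot be sized. The cause of each shift was not tested.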

Other observations

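Some genes outside the lists were singled out after their values were seen. Siglec1, a sialic acid receptor of macrophages, had 2 UMIs in control and 116 in tetYAP 4W members, a log2 ratio of 2.43 as counted (0.54 to 5.49). Fpr1, a receptor for bacterial formyl peptides, had 2 and 94 UMIs (2.13, 0.23 to 5.19), Dok2, an adaptor protein, 3 and 149 (2.21, 0.63 to 4.50), and Ltc4s, an enzyme of leukotriene synthesis, 5 and 183 (1.76, 0.52 to 3.40). On the other side, Ncoa4, the receptor for the breakdown of ferritin, had 24 and 90 UMIs, a log2 ratio of -1.52 (-2.18 to -0.81), Id2 81 and 349 (-1.32, -1.67 to -0.95), and Rgs2 45 and 215 (-1.17, -1.64 to -0.68). None of these intervals lay wholly beyond a 2-fold difference.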
